A study of Mus musculus with 11 samples.

Results

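Myl7, Myl4, Sln, Bmp10, Mybphl and Dkk3 were examined as atrial markers, to ask whether the hearts of the study were sampled alike. They are the 6 rows of the count table, of 55421 gene rows in all, whose Ensembl identifiers carry these symbols. RNA was sequenced from ventricular tissue of 11 female C57BL/6J mice, 8 weeks old, taken 3 days after the operation. A coronary artery, the left anterior descending one, was tied off in 8 of them, which causes a myocardial infarction (MI), and the infarct with its border zone was excised. Of these, 4 mice received GI254023X (A10i, 100 mg/kg), an inhibitor of the metalloprotease ADAM10, and 4 received the solvent DMSO, both from osmotic minipumps. Healthy tissue came from 3 sham-operated mice labelled as given DMSO. No sham-operated group with A10i was analysed here, and the labels name no engineered allele in any mouse.

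The atria and ventricles of the adult mouse heart use different sets of contractile and signalling genes. Atrial muscle builds its myosin with the light chains Myl7 and Myl4, where ventricular muscle uses Myl2 and Myl3. It also makes sarcolipin (Sln), a small membrane protein that slows the calcium pump of the sarcoplasmic reticulum, and the secreted ligand Bmp10. Some of these genes, Myl4 among them, are also read in the fetal ventricle, so a level in ventricular tissue is not a count of atrial cells. In bulk tissue, fewer cells of a type and less RNA per cell cannot be told apart.

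All 6 genes lie on the GRCm38 (mm10) assembly and are protein coding. Myl7 (ENSMUSG00000020469) spans chr11:5896637-5898782 on the minus strand, and Myl4 (ENSMUSG00000061086) spans chr11:104550663-104595753 on the plus strand. Sln (ENSMUSG00000042045) spans chr9:53850164-53854560 and Bmp10 (ENSMUSG00000030046) chr6:87428994-87437677, both on the plus strand. Mybphl (ENSMUSG00000068745) spans chr3:108364911-108380057 on the plus strand, and Dkk3 (ENSMUSG00000030772) spans chr7:112116017-112159057 on the minus strand. Exons of Mybphl share 89 bases with Gm12522 on the opposite strand, a transcript with a mean of 1.36 counts per library. Exons of Myl4 share 3 bases with Gm22000. Of the 31-base words in their transcripts, 4.9% for Mybphl and 0.623% for Myl4 also occur in another gene's transcripts, and 0 of those of the other 4 genes do.

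The promoters of Myl7, Myl4, Mybphl and Bmp10, the 4 of 6 genes matched in the RefSeq table, are shown to set 3 detected markers beside the nearly undetected Bmp10. Sln and Dkk3 were not matched. Each runs from 250 bases before to 50 bases after the annotated start, 5′ to 3′ on the gene's strand, as given by RefSeq for GRCm38.p6. They lie at chr11:5898733-5899032 (Myl7), chr11:104550413-104550712 (Myl4), chr3:108364661-108364960 (Mybphl) and chr6:87428744-87429043 (Bmp10). Capitals mark matches to AGATAA, a form of the core read by GATA factors, or to CAAGTG, a form of the core read by NKX2-5, on either strand. Other forms of these cores were not searched, so a window without capitals can still hold them.
Myl7: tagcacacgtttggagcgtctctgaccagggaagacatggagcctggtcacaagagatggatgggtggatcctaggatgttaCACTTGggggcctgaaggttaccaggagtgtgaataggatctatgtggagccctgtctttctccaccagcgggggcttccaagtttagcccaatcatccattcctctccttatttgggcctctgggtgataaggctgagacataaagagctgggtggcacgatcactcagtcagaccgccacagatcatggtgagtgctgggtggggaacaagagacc
Myl4: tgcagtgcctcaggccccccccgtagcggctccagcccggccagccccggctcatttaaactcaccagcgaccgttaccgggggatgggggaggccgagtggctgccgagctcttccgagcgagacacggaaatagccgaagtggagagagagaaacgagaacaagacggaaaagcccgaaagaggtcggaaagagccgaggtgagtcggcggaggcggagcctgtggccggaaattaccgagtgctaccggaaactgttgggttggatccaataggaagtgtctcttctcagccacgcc
Mybphl: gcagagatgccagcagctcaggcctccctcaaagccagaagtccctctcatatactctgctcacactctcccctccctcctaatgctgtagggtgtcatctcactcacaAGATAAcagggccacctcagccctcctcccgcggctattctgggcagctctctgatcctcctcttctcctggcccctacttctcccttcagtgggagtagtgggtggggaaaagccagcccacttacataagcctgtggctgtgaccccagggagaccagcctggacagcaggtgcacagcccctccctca
Bmp10: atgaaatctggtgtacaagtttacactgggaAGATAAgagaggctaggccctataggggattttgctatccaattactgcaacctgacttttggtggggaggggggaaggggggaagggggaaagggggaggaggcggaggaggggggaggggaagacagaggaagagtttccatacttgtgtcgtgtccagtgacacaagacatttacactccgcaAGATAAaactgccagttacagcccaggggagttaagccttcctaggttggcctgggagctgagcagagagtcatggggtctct
AGATAA stood 141 bases before the start of Mybphl, and 219 and 33 bases before that of Bmp10. CAAGTG stood 168 bases before the start of Myl7 on the opposite strand. Over 32851 promoter windows of the same length, 11.2% held AGATAA and 13.6% held CAAGTG. The T-box core AGGTGT (13.7% of windows), the MEF2 core TATTTATA (1.7%) and the TATA box TATAAA (13.6%) were in none of the 4 windows, and the Myl4 window held none of the 5 motifs searched. No matches of different motifs overlapped. A match is a run of letters and not a bound site.

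The libraries held 21702623 to 29511768 counts. The 6 genes made up a very small part of these, 0.00152% to 0.00318% in Sham, 0.00252% to 0.0126% in DMSO and 0.00607% to 0.0143% in A10i hearts. A list of 18 genes of heart muscle of all chambers took 10.99% to 11.2% of counts in Sham, 6.94% to 8.48% in DMSO and 8.09% to 9.87% in A10i hearts. Myl2, the regulatory light chain of ventricular muscle, was the reference for the labelled tissue. Its level per length was 2917 ± 135 FPKM in Sham (SD, n = 3), 1656 ± 457 in DMSO (n = 4) and 1871 ± 293 in A10i hearts (n = 4), where FPKM are counts scaled to the TMM library size and divided by the exon length in kilobases.

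Bmp10, a ligand of endothelial receptors that adult atrial muscle secretes, was at 0 counts in 10 of the 11 libraries and at 1 count in A10i heart A120. A count of 0 allows up to 3 counts, or 0.102 to 0.132 CPM (a count scaled to the library total) in those 10 libraries, for counting error alone. No fold change is given for it, and it did not pass the filter on low counts in any comparison. The counts below are thus of the 5 genes tested.

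Per length, Myl7 was the highest of the 6 in every group, with 10.3 ± 5.27 FPKM in Sham, 22.4 ± 13.6 in DMSO and 38.7 ± 16.2 in A10i hearts. Dkk3 (2.25, 4.92 and 8.67 FPKM in the same order), Myl4 (1.75, 5.79 and 7.92), Sln (0.761, 3.02 and 5.13) and Mybphl (0.460, 2.05 and 2.59) followed. The Myl7 level did not overlap with that of the next gene in Sham or A10i hearts and overlapped with it in DMSO hearts. Dkk3 and Myl4 changed places between the groups, and their ranges overlapped in each of them. Myl4's length of 4637 bases joins the exons of all its transcripts, which can lower its value per length.

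Myl7, the atrial regulatory light chain, had 66.8, 182 and 219 normalized counts (counts scaled to a common TMM library size) in Sham hearts S1, S2 and S3. In DMSO hearts A105, A127, A128 and A129 it had 416, 261, 99.5 and 576 normalized counts. In A10i hearts A116, A117, A119 and A120 it had 903, 637, 350 and 443. The A10i hearts all lay above the 3 Sham hearts, while DMSO heart A128 lay inside the Sham range.

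Myl4, the atrial essential light chain, had 179, 99.7 and 344 normalized counts in Sham hearts, listed in the same order as for Myl7. The DMSO hearts had 701, 407, 166 and 1473. The A10i hearts had 1200, 1065, 589 and 902. A129 was the highest of all 11 hearts and A128 again fell within the Sham range, so the DMSO group reached both below and above the whole A10i group.

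Sln had 15.6, 3.796 and 57.6 normalized counts in Sham, 72.5, 116.02, 62.6 and 156 in DMSO, and 285, 195, 73.0 and 140 in A10i hearts. Both infarct groups lay above the Sham group, with A128 and A119 as their lowest hearts. In raw counts, Sham heart S2 had 4 and S3 had 56, a 10.3-fold range within a group of 3 on the scale of log2 CPM with a prior count of 2, and counts this low carry a large counting error.

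Mybphl, a relative of myosin-binding protein H found in atrial and conduction tissue, had 13.4, 2.85 and 28.8 normalized counts in Sham hearts. The DMSO hearts had 72.5, 55.9, 12.9 and 126, and the A10i hearts 91.0, 131, 27.5 and 88.2. The lowest heart of each infarct group, A128 and A119, lay within the Sham range, and the other 6 infarcted hearts lay above it.

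Dkk3, a secreted protein of the Dickkopf family that is also made outside the heart, had 197, 139 and 244 normalized counts in Sham hearts. It had 541, 351, 286 and 513 in DMSO hearts and 805, 963, 521 and 689 in A10i hearts. The 8 infarcted hearts lay above the 3 Sham hearts, and the spread within groups was the narrowest of the 5 genes.

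**Figure D1:**
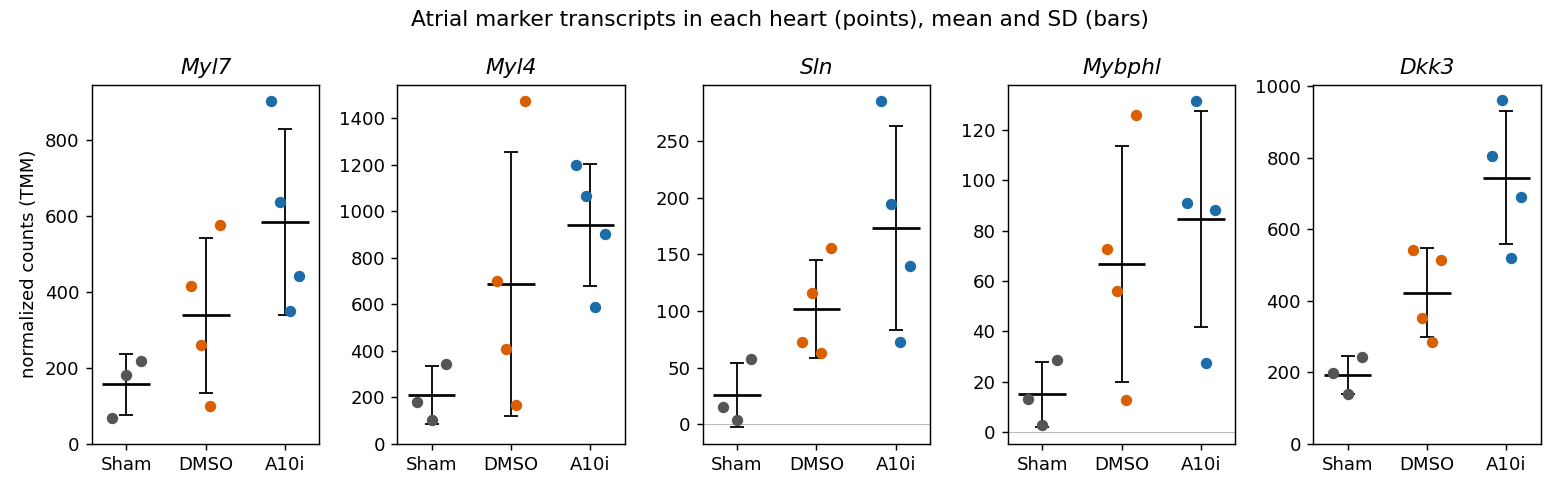
Normalized counts (vertical axes, TMM-scaled, each starting near 0) of Myl7, Myl4, Sln, Mybphl and Dkk3 in the Sham (n = 3), DMSO (n = 4) and A10i (n = 4) groups, with 1 point per heart, the mean as a line and the SD as a bar. The mean is lowest in Sham and highest in A10i hearts for all 5 genes, and the DMSO and A10i points overlap in each panel.

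Sham and DMSO hearts were compared first, which asks whether infarct tissue holds more atrial transcript than healthy tissue. All 5 genes tested had higher means in DMSO hearts, but 0 of 5 passed an adjusted p of 0.01 in edgeR's quasi-likelihood test, against 12.9% of all 17117 genes tested that were called higher and 9.60% called lower. Over all genes, the calls fell from 3858 to between 1525 and 1542 when S1, S2 or S3 was left out. DESeq2 called 1 of the 5 (Dkk3) and limma-voom 0. At an unadjusted p under 0.05 in edgeR, 4 of 5 were higher, against 25.9% of all genes, and 2 of 5 (Sln and Dkk3) did not overlap between the groups, against 25.6% of all genes. The median log2 fold change of the 5 genes was 1.72, against 0.0021 over all genes tested.

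Dkk3 came nearest to the threshold, with a log2 fold change of 1.12 ± 0.27 (SE, edgeR adjusted p = 0.0102). Sln had 1.98 ± 0.67 (edgeR adjusted p = 0.0429) and Mybphl 2.14 ± 0.80 (edgeR adjusted p = 0.0604). Myl4 had 1.72 ± 0.72 (edgeR adjusted p = 0.0909) and Myl7 1.10 ± 0.58 (edgeR adjusted p = 0.162). Dkk3 thus had the smallest error of the 5 and a fold change near the lowest. Without DMSO heart A128, Dkk3 was called (edgeR adjusted p = 0.00361), and without Sham heart S3, Sln was called (edgeR adjusted p = 0.00767). Of all genes, 2288 were called higher without A128 and 939 without S3, against 2215 with all hearts.

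A10i and Sham hearts were compared next, on the same 3 Sham libraries, so the results of the first and the second comparison are not independent. Myl4 and Dkk3 rose in A10i hearts, which makes 2 of 5 genes called, against 13.7% of all 16971 genes tested called higher and 9.11% called lower. Of the 5 genes, 4 did not overlap between the groups, against 24.8% of all genes, and Mybphl was the exception. The median log2 fold change was 2.19, against -0.0054 over all genes tested.

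Dkk3 was higher by 1.96 ± 0.25 on the log2 scale (SE, edgeR adjusted p = 0.000716) and Myl4 by 2.19 ± 0.40 (edgeR adjusted p = 0.00409). Myl7 (1.90 ± 0.44, edgeR adjusted p = 0.0108), Sln (2.77 ± 0.72, edgeR adjusted p = 0.0164) and Mybphl (2.51 ± 0.67, edgeR adjusted p = 0.0173) missed the threshold. Dkk3 stayed called whichever heart was left out, while single hearts decided the calls of the other genes. Without A119, the lowest A10i heart for all 5 genes, 5 of 5 were called, and without S1 or without A116 the count was 1 of 5, with Myl4 lost (edgeR adjusted p = 0.0192 and 0.0376). Of all genes, 2373 were called higher without A119, 1077 without S1 and 2544 without A116, against 2333 with all hearts. The drop without S1 thus went with fewer calls over all genes, and the drop without A116 did not. Without S3, Sln was called as well, with a log2 fold change of 4.20. The calls over all genes fell from 3879 to between 1620 and 1714 when 1 Sham heart was left out.

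A10i and DMSO hearts, the comparison that bears on the inhibitor, were then set against each other. The edgeR test called 0 of 5 genes, and it called 0% of 16792 genes higher and 0% lower. DESeq2 and limma-voom also called 0 of 5. The methods differed over all genes, where DESeq2 called 106 higher and 125 lower and limma-voom called 0 in either direction. The paper reports genes that were significantly higher and genes that were significantly lower with A10i. At an unadjusted p under 0.05 in edgeR, 1 of 5 was higher (Dkk3), against 7.10% of all genes, and 0 of 5 lay in groups that did not overlap, against 3.78% of all genes. All 5 log2 fold changes were above 0.

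Dkk3 was 0.83 higher on the log2 scale in A10i than in DMSO hearts (95% interval 0.30 to 1.36, edgeR unadjusted p = 0.00624, adjusted p = 0.180), and DESeq2 gave it an adjusted p of 0.0330. For Myl7 the difference was 0.80 (95% interval -0.25 to 1.85) and for Sln 0.78 (-0.15 to 1.70). For Myl4 it was 0.46 (-0.73 to 1.65) and for Mybphl 0.36 (-0.97 to 1.69). These intervals include 0 for 4 of the 5 genes, and they also include differences of more than 1.6 on the log2 scale, so they do not show that the 2 infarct groups held the same amount of atrial transcript. Leaving out 1 heart at a time gave 0.14 to 1.16 for Myl4, 0.013 to 0.87 for Mybphl, 0.50 to 1.196 for Myl7, 0.43 to 1.06 for Sln and 0.68 to 0.97 for Dkk3, all above 0 and none called.

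Because heart muscle transcripts took a smaller share of counts after MI, the test was repeated with the summed counts of the 18 heart muscle genes as the library size. This scaling moved the median of all genes to 0.72 for DMSO against Sham, 0.50 for A10i against Sham and -0.21 for A10i against DMSO. Values are to be read against these shifts, which depend on the genes summed. Myh6 and then Atp2a2 held the most counts of the list. With Tnnt2, Tnni3 and Actc1 alone as reference, the shifts were 0.25, 0.23 and -0.0065 in the same order. The genes called higher in DMSO over Sham hearts then numbered 2250, against 9318 with the whole list. Relative to heart muscle transcripts, Dkk3 rose in DMSO hearts (log2 fold change 1.85, edgeR adjusted p = 0.000345), which makes 1 of 5 genes called, against 54.4% of all genes. The count became 4 of 5 without A128, where 7837 of all genes were called higher, against 9318 with all hearts. In A10i hearts 5 of 5 rose over Sham, by 2.46 (Myl7), 2.72 (Myl4), 3.33 (Sln), 3.04 (Mybphl) and 2.48 (Dkk3) on the log2 scale, against 40.0% of all genes called higher. That count fell to 1 of 5 without S1 or without A116, to 2 without S2 and to 3 without A117. Of all genes, 3190 were called higher without S1, 8160 without A116, 2878 without S2 and 5283 without A117, against 6786 with all hearts. Between A10i and DMSO hearts 0 of 5 were called on this scale, with 0% of all genes called higher.

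**Figure D2:**
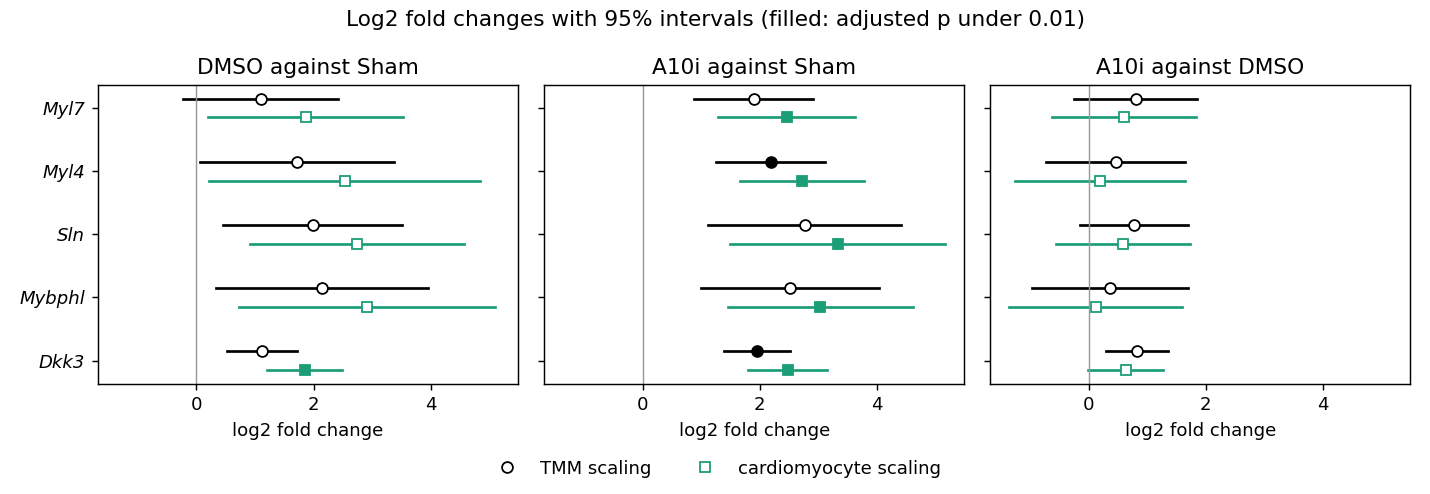
Log2 fold changes (horizontal axis) of the 5 tested atrial markers in the 3 comparisons, with TMM scaling as black circles and with heart muscle transcripts as the library size as green squares. Lines are 95% intervals and filled symbols mark an adjusted p under 0.01, which 2 black symbols reach, both in A10i against Sham, and 0 symbols in A10i against DMSO.

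The ratio of each gene to Myl2 within a library does not depend on scaling. Per 1000 Myl2 counts, Myl7 had 0.449, 1.32 and 1.46 counts in Sham hearts S1, S2 and S3. It had 3.91, 2.67, 1.58 and 9.12 in DMSO hearts and 12.1, 7.10, 3.23 and 4.42 in A10i hearts, in the order used above. Each infarcted heart was above each Sham heart on this scale. The ranges for Myl4 were 0.724 to 2.30 in Sham, 2.64 to 23.3 in DMSO and 5.43 to 16.1 in A10i hearts. For Dkk3 they were 1.01 to 1.62, 3.59 to 8.12 and 4.79 to 10.8.

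The 5 log2 ratios were higher in DMSO than in Sham hearts by 1.88 (Myl7) to 3.52 (Sln), and higher in A10i than in Sham hearts by 2.60 (Dkk3) to 4.01 (Sln). All 5 ratios lay in groups that did not overlap in both comparisons, against 68.4% of all genes for DMSO and 73.1% for A10i, since Myl2 itself was lower after MI. Each gave p = 0.0571 in a two-sided exact permutation test, the smallest value that 3 against 4 hearts allow, or 0.0857 after Benjamini-Hochberg adjustment over the 15 ratios tested. Between A10i and DMSO hearts the 5 differences were 0.33 (Mybphl) to 0.76 (Myl7), all with overlap, where 0.387% of all genes did not overlap. Their exact permutation p-values ran from 0.171 to 0.743 (adjusted 0.234 to 0.743), where 4 against 4 hearts allow 0.0286.

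**Figure D3:**
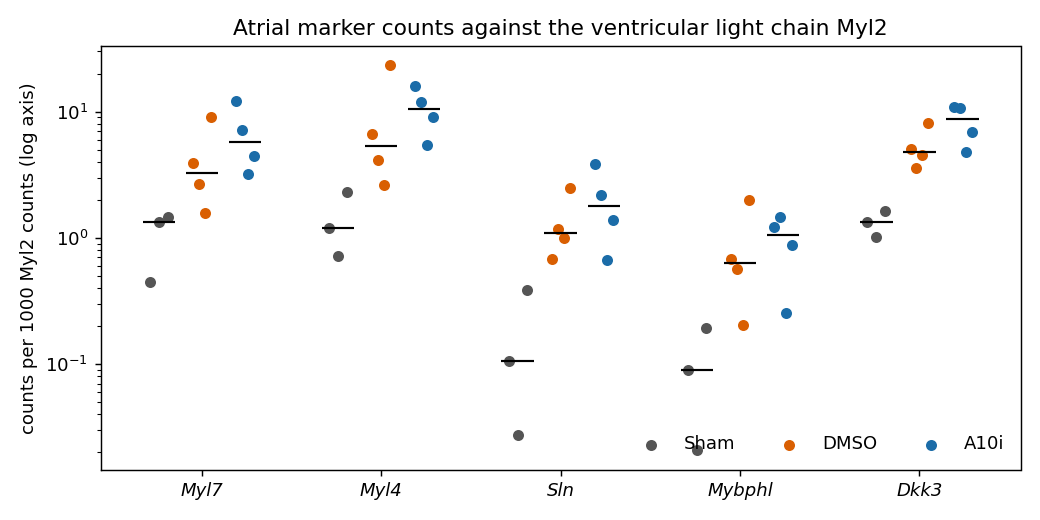
Counts of each atrial marker per 1000 Myl2 counts of the same library (vertical log axis), with 1 point per heart and the group median as a line, for Sham (n = 3), DMSO (n = 4) and A10i (n = 4). The Sham points lie below all infarct points for each gene, and DMSO and A10i points overlap.

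The 5 genes varied widely within groups. In Sham hearts the SD of log2 CPM was 1.68 for Sln, 1.35 for Mybphl, 0.91 for Myl7, 0.89 for Myl4 and 0.41 for Dkk3, against a median of 0.108 over 11484 genes of 1 to 50 CPM, of which 94.6% to 99.99% had a smaller SD than these genes. In DMSO hearts the SDs were 0.44 (Dkk3) to 1.32 (Mybphl), against a median of 0.203. In A10i hearts they were 0.38 (Dkk3) to 0.94 (Mybphl), against 0.170. The fewer counts of Sln and Mybphl, 3 to 56 in Sham hearts, add counting error to their SDs.

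The hearts departed from their group means in a like order for most of the genes. S3 was the highest Sham heart and A119 the lowest A10i heart for all 5, A128 was the lowest DMSO heart for all 5, and A129 was the highest DMSO heart for 4 of 5, with Dkk3 as the exception. Over the 11 libraries, the deviations of log2 CPM from the group means gave r = 0.93 (Pearson) and rho = 0.97 (Spearman) for Myl4 with Mybphl. The values were r = 0.93 and rho = 0.90 for Mybphl with Dkk3, and r = 0.87 and rho = 0.85 for Myl4 with Dkk3. Without the 2 hearts farthest from the median these were 0.91, 0.88 and 0.92. Myl7 stood further off, with r = 0.77 with Myl4, 0.65 with Dkk3, 0.64 with Mybphl and 0.44 with Sln. These values describe 11 libraries that share their depth and composition between genes, and no p is given for them.

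**Figure D4:**
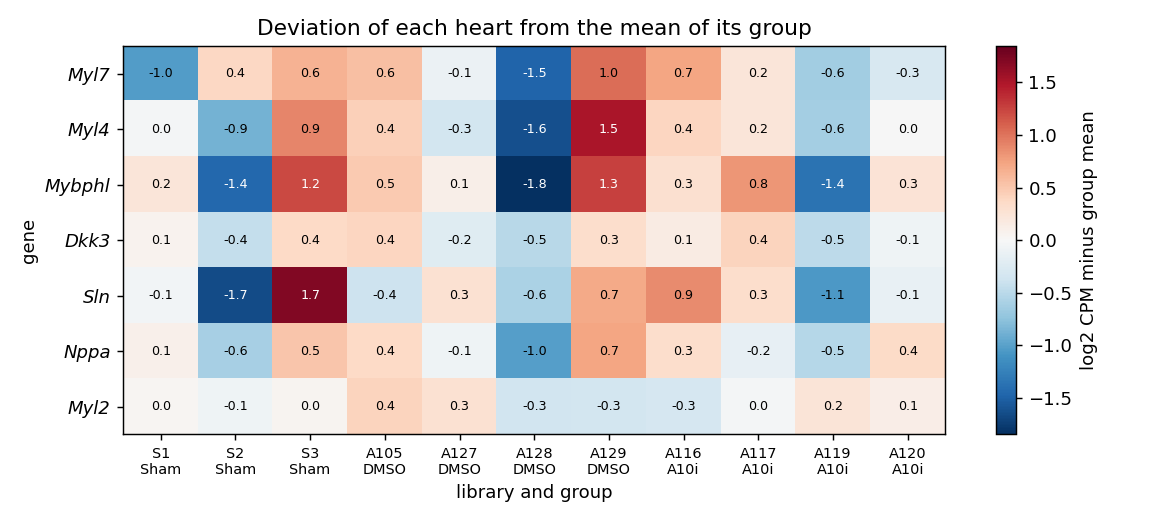
Log2 CPM of each heart minus the mean of its group (colour and printed value) for the 5 atrial markers, for Nppa and for Myl2, with 1 column per library. S3 and A129 are above and A128 and A119 below their group means in all 5 markers, while Myl2 stays within 0.41 of its group means.

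Of 14765 genes with a mean of at least 1 CPM, the 10 whose deviations were most like those of Myl7 were Scfd1, Rpl9-ps6, Senp3, Ss18, Rps15a-ps6, Rps7, AC121967.1, Isg20l2, Dctn5 and Rpl10a, with r = 0.95 to 0.90. None of them is on a list of cell type markers used here, and 4 of the 10 are ribosomal protein genes or their pseudogenes. Myl4 ranked 131st, Nppa 466th, Dkk3 651st, Mybphl 679th and Sln 2346th. With Myl4 as the reference, a choice made after the values were seen, Nppa ranked 4th (r = 0.94), Mybphl 8th (r = 0.93) and Dkk3 41st (r = 0.87), while Myl7 ranked 221st and Myl2 7322nd (r = -0.02). Ribosomal protein genes and pseudogenes, led by Rpl3-ps2 (r = 0.97), were again among the first 10. Reads of such pseudogenes and of their parent genes are hard to tell apart. The part that RNA quality or library preparation had in the ranks was not tested.

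Other genes known for higher levels in atria did not move as one. Of a list of 12, 2 rose and 1 fell in DMSO over Sham hearts, against 12.9% of all genes called higher and 9.60% called lower. These counts are near those shares and do not set the list apart. Nppa, the atrial natriuretic peptide, which stressed ventricles also make, rose by 2.80 on the log2 scale (edgeR adjusted p = 0.00152) in DMSO and by 2.27 in A10i hearts (edgeR adjusted p = 0.00103). Gja5, the connexin of atrial muscle, conduction tissue and arteries, which was named after its values were seen, rose by 0.68 and 0.86. Kcnj5, a subunit of the acetylcholine-gated potassium channel, fell by 0.57 and by 0.75, and its partner Kcnj3 had log2 fold changes of -0.61 and -0.57 that missed the threshold. Relative to heart muscle transcripts, Kcnj5 had 0.14 and -0.26 and was called in neither group. Pam, an enzyme that amidates peptides and is abundant in atrial granules, had 0.05 and 0.20. In A10i over Sham hearts 2 of 11 rose and 1 fell, again near the 13.7% of all genes called higher and 9.11% called lower. The list's median was -0.07 in DMSO and -0.01 in A10i hearts, against medians of 1.72 and 2.19 for the 5 markers. Of 6 sinus node genes 0 were called in DMSO, and 1 (Hcn4, the pacemaker channel) fell in A10i hearts, by 0.68. These counts are to be read against the same shares of all genes. In DMSO hearts Hcn4 had a log2 fold change of -0.84, without overlap with Sham but short of the threshold. Relative to heart muscle transcripts 0 of the 6 were called lower in either group. On that scale 3 of 6 were called higher in both, against 54.4% and 40.0% of all genes.

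Of 6 ventricular genes, 2 fell in both infarct groups, and these were Myl2 (by 0.83 in DMSO and 0.64 in A10i hearts on the log2 scale) and the transcription factor Irx4 (by 0.71 and 0.58). With TMM scaling, 9.60% of all genes were called lower in DMSO and 9.11% in A10i hearts. Myl3 had -0.49 and -0.43 and Kcnj2 -0.29 and 0.02, none of which passed the threshold. Of the 18 heart muscle genes, 7 fell in DMSO and 4 in A10i hearts, with Myh6, Ckm and Ckmt2 in both counts, and 0 rose. These directions depend on the scaling, since relative to heart muscle transcripts 0 of the 6 ventricular genes were called in either infarct group, while the other atrial genes counted 5 of 12 higher in DMSO and 4 of 11 in A10i hearts with 0 lower. These shares are below or near the 54.4% and 40.0% of all genes called higher on that scale.

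Among relatives of the 6 genes, 1 of 9 tested rose and 2 fell in DMSO hearts, and 3 of 10 rose in A10i hearts, with Myl9 and Dkk2 beside Myl6. Of all genes, 12.9% were called higher and 9.60% lower in DMSO hearts, and 13.7% and 9.11% in A10i hearts. With TMM scaling, the non-muscle light chain Myl6 rose in both (by 0.59 and 0.48). Pln, the ventricular counterpart of Sln, fell in DMSO hearts by 0.68 with this scaling. Mybpc3, the myosin-binding protein C of heart muscle, fell there by 0.60. Pln and Mybpc3 stood at 0.03 and 0.12 in DMSO hearts relative to heart muscle transcripts. Both are among the heart muscle genes summed for that reference, so such small values are partly built in. They do not show whether the falls of Pln and Mybpc3 depend on the scaling. Among 11 partners, 1 rose and 2 fell in DMSO hearts and 1 rose and 1 fell in A10i hearts. These counts are to be read against the same shares of all genes. Atp2a2, the calcium pump on which Sln acts, fell by 1.01 in DMSO hearts and had -0.47 in A10i hearts (edgeR adjusted p = 0.0171). The myosin heavy chain Myh6 fell by 1.19 and by 0.79, while the fetal heavy chain Myh7 rose by 1.59 in DMSO hearts and had 0.88 in A10i hearts (edgeR adjusted p = 0.0424). The Bmp10 receptor Acvrl1 had 0.30 and rose by 0.31.

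Markers of neighbouring tissues and of infiltrating cells were read as a check of what was excised. Of 6 lung markers, Sftpc, Sftpa1, Sftpd and Scgb1a1 had 0 counts in all libraries and Sftpb had at most 2. The sixth, Ager, had 5 to 8 counts in Sham, 13 to 27 in DMSO and 7 to 16 in A10i hearts. Its log2 fold changes over Sham were 1.30 and 0.84 without overlap (edgeR adjusted p = 0.0175 and 0.107), and relative to heart muscle transcripts it rose in DMSO hearts by 2.01. The 7 thymus markers summed to at most 2.07 CPM. Of the skeletal muscle markers, 1 of 5 rose in DMSO (Tnni2) and 1 of 6 in A10i hearts (Tnnt3). Their median log2 fold changes were 1.48 and 0.70, with 3 of 5 and 3 of 6 higher without overlap, against 25.6% and 24.8% of all genes. Their summed level was 72.4 to 178 CPM in Sham, 239 to 595 in DMSO and 221 to 415 in A10i hearts. The skeletal actin Acta1, which the fetal and stressed ventricle also makes, held most of that sum, while the fast heavy chains Myh4 and Myh1 had group means of at most 0.135 CPM. Neutrophil markers rose for 5 of 5 genes in both infarct groups, and their summed level was 0.949 to 1.88 CPM in Sham, 64.1 to 129.5 in DMSO and 11.8 to 44.9 in A10i hearts. Macrophage markers rose for 3 of 5 and 5 of 5 genes, fibroblast markers for 3 of 6 and 5 of 6, epicardial markers for 3 of 5 and 3 of 5, and smooth muscle markers for 1 of 5 and 2 of 5. Adipocyte markers rose for 1 of 4 and 0 of 5 genes, endothelial markers fell for 2 of 5 and 1 of 5, and erythroid markers were called for 0 of 5 in both. With TMM scaling, 12.9% of all genes were called higher and 9.60% lower in DMSO hearts, and 13.7% and 9.11% in A10i hearts. Relative to heart muscle transcripts, where 54.4% (DMSO) and 40.0% (A10i) of all genes were called higher, endothelial markers turned to 2 and 3 of 5 higher with 0 lower. On that scale smooth muscle markers were higher for 5 of 5 in both groups, skeletal muscle markers for 4 of 5 and 4 of 6, fibroblast markers for 5 and 6 of 6, macrophage and neutrophil markers for 5 of 5, epicardial markers for 4 of 5, adipocyte markers for 1 of 4 and 2 of 5, and erythroid markers for 0 of 5. Between A10i and DMSO hearts 0 genes of these lists were called, where edgeR with TMM scaling called 0% of all genes higher or lower. The 5 neutrophil markers nevertheless had log2 fold changes of -2.48 to -1.38 there, with a median of -1.95 against 0.0034 over all genes. The paper reports S100a8 and S100a9 as significantly lower with A10i. The part that these cells had in the levels of the 6 atrial markers was not tested.

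For its protein blots 3 days after the operation, the paper describes the sham samples as processed similarly to the excised infarct and border zone. Sham tissue was healthy tissue and MI tissue was the infarct with its border zone. Any difference in the sampled site would thus have changed together with the infarct. A difference in the site that was cut and a change of the markers within ventricular muscle therefore cannot be told apart between Sham and MI hearts. The labels give no batch or date of preparation.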

How the data were processed

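Poly(A) RNA of 11 hearts was prepared with a strand-specific kit and sequenced as read pairs. The authors aligned reads to mm10 with GSNAP (2020-12-16) and used featureCounts (2.0.1) with the Ensembl 98 annotation to count uniquely placed reads, and the deposited values are raw counts. The strand setting of the counting is not given in the sources used here. The table held 55513 rows, of which 92 spike-in rows (at most 0.000194% of counts) were left out. Coordinates in the file were identical to GENCODE M21, which gave the symbols of 55154 identifiers. The gene lengths in the deposited table, in bases, gave FPKM.

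Each comparison used the libraries of its own groups. edgeR 4.0.16 (R 4.3.3) was run with filterByExpr, TMM and its quasi-likelihood test (robust, two-sided), Benjamini-Hochberg adjusted over all genes tested, with a threshold of 0.01. It was tested on simulated data in which all genes had the same relative spread between replicates. That simulation does not show how the test performs for genes that vary as widely as these markers. Ratios to Myl2 were compared by exact permutation tests. Alternatives were DESeq2 1.42.0, limma-voom (limma 3.58.1), DESeq2 size factors, library size alone, 2 other filters, a joint fit, a threshold of 0.05, other reference genes and the omission of each library. CPM for likeness used a prior count of 2. The 6 genes and 18 lists were chosen with earlier results of these data known. Genes named are the 6, at most 4 of highest mean CPM per list, the 10 most like Myl7, and those stated as named after their values were seen, to which Hcn4, Ckm, Ckmt2, Acvrl1, Myl9, Dkk2, Tnni2, Tnnt3, Rpl3-ps2 and the lung and the low skeletal muscle markers are added. The depth of 21702623 to 29511768 counts limits genes of few counts most, and intervals and floors for a count of 0 cover counting error alone.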

Additional observations from a re-analysis of the deposited data

How the results depend on the processing

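The direction of the 5 tested markers was the same in 168 of 168 values over all alternatives for DMSO against Sham. It was the same in 168 of 168 for A10i against Sham, and 179 of 185 values were above 0 for A10i against DMSO. These values include those at the threshold of 0.05, which repeat the main log2 fold changes and could not change direction. The 6 exceptions all left out 1 heart. Relative to heart muscle transcripts, Myl4 in A10i against DMSO became -0.024 without A127, -0.14 without A128 and -0.054 without A116, with a range of -0.14 to 1.14 over the omitted hearts. Mybphl on this scale became -0.23 without A128 and -0.15 without A117, with a range of -0.23 to 0.83. The log2 ratio of Mybphl to Myl2 became -0.21 without A128, with a range of -0.21 to 0.88.

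For DMSO against Sham the number of markers called was 0 and became 1 with library size alone, with at least 10 counts in every library (3 genes tested), with DESeq2 and in the joint fit of 11 libraries, 2 at a threshold of 0.05 (6832 of all genes called, against 3858), and 0 to 1 when 1 heart was left out. Relative to heart muscle transcripts it was 1 and became 3 with the ventricular list as reference (7472 of 17117 genes called, against 9445), 4 at 0.05 (12075 genes called), and 1 to 4 when 1 heart was left out (5958 to 10770 genes called). For A10i against Sham it was 2 and became 1 with no filter and 1 in the joint fit. It became 3 with library size alone, 3 with at least 10 counts (3 genes tested) and 3 with DESeq2. At 0.05 it was 5 (6671 of all genes called, against 3879), and it was 1 to 5 when 1 heart was left out. Relative to heart muscle transcripts it was 5 (6895 of 16971 genes called) and became 3 with Tnnt2, Tnni3 and Actc1 as reference (2999 genes called), 4 with the ventricular list (6642), and 1 to 5 when 1 heart was left out (2840 to 8343). Over all genes, 2215 were called higher for DMSO against Sham. This became 3330 with library size alone, 2075 with at least 10 counts, 2905 with DESeq2 and 2525 in the joint fit. For A10i against Sham 2333 were called higher. This became 2517 with no filter, 1790 in the joint fit, 3436 with library size alone, 2110 with at least 10 counts and 2870 with DESeq2. For A10i against DMSO the number of markers called was 0 under each alternative on both scales. The cause of these changes was not tested.

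Library size alone moved the median of all genes to 0.21 (DMSO) and 0.18 (A10i) over Sham and the calls over all genes to 3330 higher and 708 lower, and 3436 and 577, from 2215 and 1643, and 2333 and 1546. Calls over all genes between A10i and DMSO were 0, against 43 with no filter, 231 with DESeq2, 11 in the joint fit and 12 at 0.05. No paired analysis was possible because the groups share no replicate numbers. Depth limits Bmp10, which could not be tested, and the low Sham counts of Sln and Mybphl.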
